A study of Mus musculus with 24 samples.

Results

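The 44 genes described here are genes of the myeloid lineage, followed in lymphoid progenitors of mouse bone marrow that lack phospholipase Cγ1 (PLCγ1), PLCγ2 or both. They were chosen by gene symbol, as genes of neutrophil granules, myeloid growth factor receptors, myeloid transcription factors, Fc receptors, microbial sensors, chemokine receptors, lysosomal effectors and the phagocyte oxidase. All 44 of the 44 symbols were found among the 24421 genes of each count table, and all had reads in every one of the 24 libraries.

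RNA-seq had been done on 2 sorted populations. Common lymphoid progenitors (CLPs) were sorted as Lin-IL-7R+ cells and B cell progenitors as B220+IgM-IL-7R+ cells. Each population came from 4 genotypes labelled PLCgamma1+/+PLCgamma2+/+, PLCgamma1-/-PLCgamma2+/+, PLCgamma1+/+PLCgamma2-/- and PLCgamma1-/-PLCgamma2-/-, written below as WT, Plcg1-/-, Plcg2-/- and Plcg1-/-Plcg2-/-. There were 3 mice per genotype, and each of the 12 mice gave 1 library per population. In every group, the WT included, donor marrow carried the Mx-Cre transgene, which drives Cre from a promoter that type I interferon induces, and a Rosa-YFP reporter, and the donors had been given poly(I-C). Plcg1 was deleted by Cre from floxed alleles in the marrow, whereas Plcg2 was deleted in the germline. The marrow was transplanted into lethally irradiated CD45.1+ recipients, and donor-derived CD45.2+ cells were sorted weeks later. The study used mice of both sexes on a mixed 129xC57BL/6 background. How many donors each genotype had, and the age and sex of each sampled mouse, were not given in the sources used here, so that p-values measure the spread between these 3 libraries per group.

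Neutrophils, monocytes and macrophages arise from granulocyte and macrophage progenitors, while CLPs give rise mainly to lymphocytes. Commitment to B cells is accompanied by silencing of myeloid genes, under the control of factors such as EBF1 and PAX5, while C/EBPα and PU.1 drive the granule and receptor genes of the myeloid branch. Primary granule proteins are made at the promyelocyte stage and the secondary and tertiary granule proteins later in neutrophil maturation. The Lin cocktail used to exclude mature cells contained antibodies against Mac-1 (encoded by Itgam, a member) and Gr-1. Several members, among them Fcgr2b, Ly86, Ctss, Ncf1, Ncf4, Cybb, Mpeg1, Tlr4 and Csf2rb, are also known from B-lineage cells.

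Depth and identity differed among libraries. Reads assigned to genes ranged from 4232345 to 33219995 in CLPs (median 16744580) and from 1479582 to 25057223 in B cell progenitors (median 7496844), so that 3 reads were worth 0.0903 to 0.709 CPM (the count scaled to library size) in CLPs and 0.120 to 2.03 CPM in B cell progenitors. Plcg2 stood at 72.1 to 138 normalized CPM in the 12 libraries labelled Plcg2-/- and at 183 to 282 in the 12 others, without overlap. Plcg1, counted over the whole gene rather than the deleted exons, overlapped between the 12 libraries labelled Plcg1-/- (56.0 to 185) and the 12 others (77.4 to 113). The female transcript Xist stood at 1294 to 2314 in the Plcg1-/- and Plcg1-/-Plcg2-/- libraries and at 23.6 to 743 in the others, so that sex and loss of Plcg1 cannot be told apart. Markers did not separate the populations: the summed level of the B progenitor markers was 1525 to 7171 CPM in CLPs and 2530 to 7475 in B cell progenitors, and that of the CLP markers 1151 to 3572 and 1199 to 5187. Markers of other cells the gates could hold were measured in all 24 libraries: T cell markers summed to 46.2 to 208 CPM, NK cell markers 14.1 to 183, plasmacytoid dendritic cell markers 60.2 to 453, stroma markers 33.9 to 1164 and erythroid markers 7.48 to 294, with the 6 haemoglobin genes of that list at 0. In bulk samples, fewer cells of a type and less RNA per cell cannot be told apart, and here the same holds for more myeloid cells in the sort and more myeloid RNA per lymphoid progenitor.

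Promoters of the primary and later granule genes are shown first, since these 2 groups behaved differently between libraries. Promoter sequences, from 250 bases before to 50 bases after each RefSeq start on GRCm38.p6, were matched for 36 of the 44 members, in 39 promoters. The letters GAGGAAGT, a form of the site that PU.1 binds, stood on either strand in 6 of the 39 promoters (15.4%), against 1052 of all 32851 promoters (3.20%). This motif and the next one were chosen after promoters of granule genes had been read, so their shares are no test of enrichment. Each of these 3 windows of 60 bases holds the motif, in capitals, in the promoter of a primary granule gene. The Mpo window lies at chr11:87793534-87793593, the Elane window at chr10:79886201-79886260 and the Prtn3 window at chr10:79879546-79879605, all on the plus strand, which is the strand of the genes.
Mpo: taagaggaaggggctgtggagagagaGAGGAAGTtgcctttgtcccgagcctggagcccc
Elane: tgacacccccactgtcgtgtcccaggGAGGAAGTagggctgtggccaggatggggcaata
Prtn3: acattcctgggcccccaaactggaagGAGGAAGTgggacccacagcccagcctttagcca
The motif ended 217, 78 and 88 bases before the RefSeq start of Mpo, Elane and Prtn3. The other promoters that held it were those of Mmp8 and S100a8, of the later granule group, and of Ctss.

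The letters TTGCNNAA, a core of the sites of C/EBP factors, stood on either strand in 11 of the 39 member promoters (28.2%), which belonged to 10 genes, against 3547 of all promoters (10.8%). The 2 motifs can share a base at their ends. The next windows, for Ngp (chr9:110419644-110419703) and Ltf (chr9:111019191-111019250), both on the plus strand, hold it in the promoters of genes of the later granules. In Ltf the motif is read on the opposite strand.
Ngp: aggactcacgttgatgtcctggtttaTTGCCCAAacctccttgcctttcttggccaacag
Ltf: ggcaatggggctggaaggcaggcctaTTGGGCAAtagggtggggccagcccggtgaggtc
The motif ended 131 bases before the start of Ngp and 68 bases before that of Ltf. It also stood in promoters of the primary granule genes Fcnb and Ms4a3, and of Lcn2, Mmp8, S100a9, Cd68, Fcgr3 and Gfi1. Neither motif was thus confined to one granule group. A match describes letters in a window, not binding in these cells.

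Myeloid transcripts were abundant in both sorted populations. The 44 genes summed to between 4322 and 16439 normalized CPM in CLPs (0.432% to 1.64% of the normalized library size) and to between 2975 and 14632 in B cell progenitors (0.298% to 1.46%). Per kilobase of exon, Lyz2, which encodes a lysozyme of phagocytes, had the highest median level of the 44 in both populations (892 CPM per kb in CLPs and 745 in B cell progenitors). Mpo and S100a9 followed, at 572 and 544 CPM per kb in CLPs and 490 and 591 in B cell progenitors. The lowest was Cd33, a sialic acid-binding receptor, at 1.25 and 0.973 CPM per kb, and Tlr4 stood next to last in both. Among all genes, Mpo ranked 5 by mean CPM in CLPs, while in B cell progenitors its rank was 9. Lyz2 and Csf2rb have near-identical copies, Lyz1 and Csf2rb2, so that their reads could have been split between copies.

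The sums of the myeloid genes ranked the mice alike in both populations in the 3 knockout genotypes, but not in WT. In each of the 3 knockout genotypes, and in both populations, the replicate 1 library was the highest, replicate 3 the middle and replicate 2 the lowest. The replicate 1 knockout libraries held 14809 to 16439 CPM of myeloid transcripts in CLPs and 13756 to 14632 in B cell progenitors. In WT the highest library was replicate 3, at 8094 CPM in CLPs and 8687 in B cell progenitors, while the lowest was replicate 2 in CLPs and replicate 1 in B cell progenitors. Both libraries of a mouse carry the same replicate number, and the labels do not say that this number ties mice of different genotypes to each other.

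**Figure D1:**
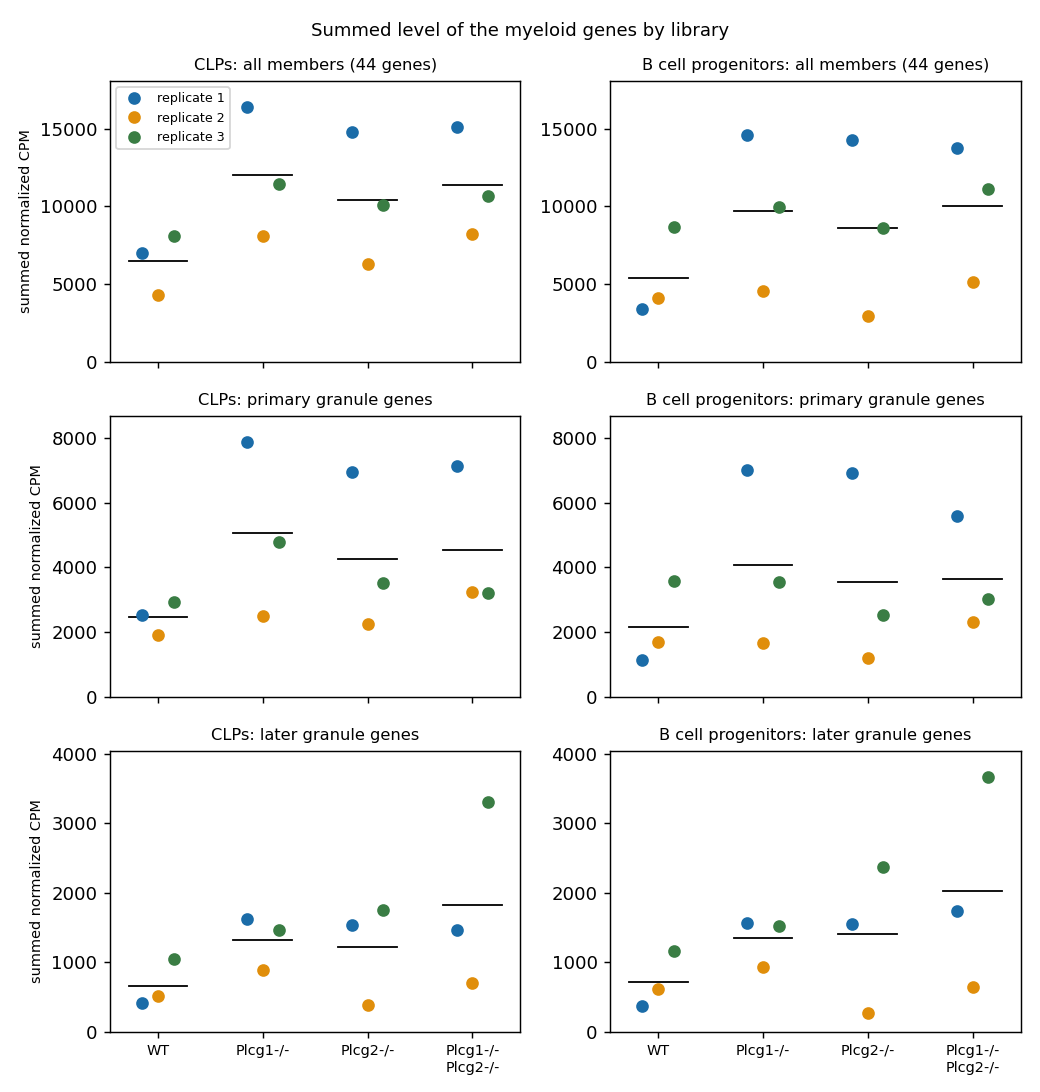
Summed normalized CPM (vertical axis) of all 44 myeloid genes, of the 6 primary granule genes and of the 8 later granule genes in each of the 24 libraries, by genotype, with CLPs on the left and B cell progenitors on the right; points are libraries coloured by replicate number and lines are means of 3. In the 3 knockout genotypes replicate 1 is highest for the upper and middle rows, whereas in the lower row the highest libraries are the Plcg1-/-Plcg2-/- replicate 3 libraries, at 3310 and 3671 CPM.

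The 6 knockout libraries numbered replicate 1, set apart after their myeloid sums had been seen, also differed from the other 18 in other transcripts. Il7r, the receptor used for both sorts, stood at 134 to 159 CPM in them and at 182 to 506 in the other 18, and the CLP markers summed to 1151 to 1254 CPM against 1530 to 5187. The mature neutrophil list, of which 4 of 5 genes were in the tables and 1, Itgam, is a member, summed to 949 to 1099 CPM against 172 to 691. Most of that sum was Ly6c2, a surface antigen that monocytes share with neutrophils, at 648 to 775 CPM against 123 to 469. The neutrophil genes Retnlg (58.3 to 237 against 10.7 to 107) and Cxcr2 (6.37 to 16.4 against 2.75 to 79.3) overlapped. The macrophage markers (125 to 164 against 45.0 to 149) and the plasma cell markers (587 to 2014 against 182 to 715) lay high without being apart. The part of these transcripts in the levels of the 44 genes was not tested, and the share of all genes that separate the 6 libraries from the other 18 was not counted.

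Members varied between libraries of one group by more than most genes did. Within a group of 3 libraries, the ratio of the highest to the lowest library had a median over the 44 members of 2.33 in the least variable group, Plcg1-/- CLPs, and 5.27 in the most variable, Plcg2-/- B cell progenitors. Over all genes with reads in every library of a group, the median ratio was 1.39 to 1.60. Of the members, 19 (43.2%) were highest in replicate 1 in at least 6 of the 8 groups, against 9.28% of all 17212 genes tested across both populations. A further 9 (20.5%) were highest in replicate 3 in at least 6 groups, against 3.07% of all genes, and 0 were highest in replicate 2, against 8.70%.

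**Figure D2:**
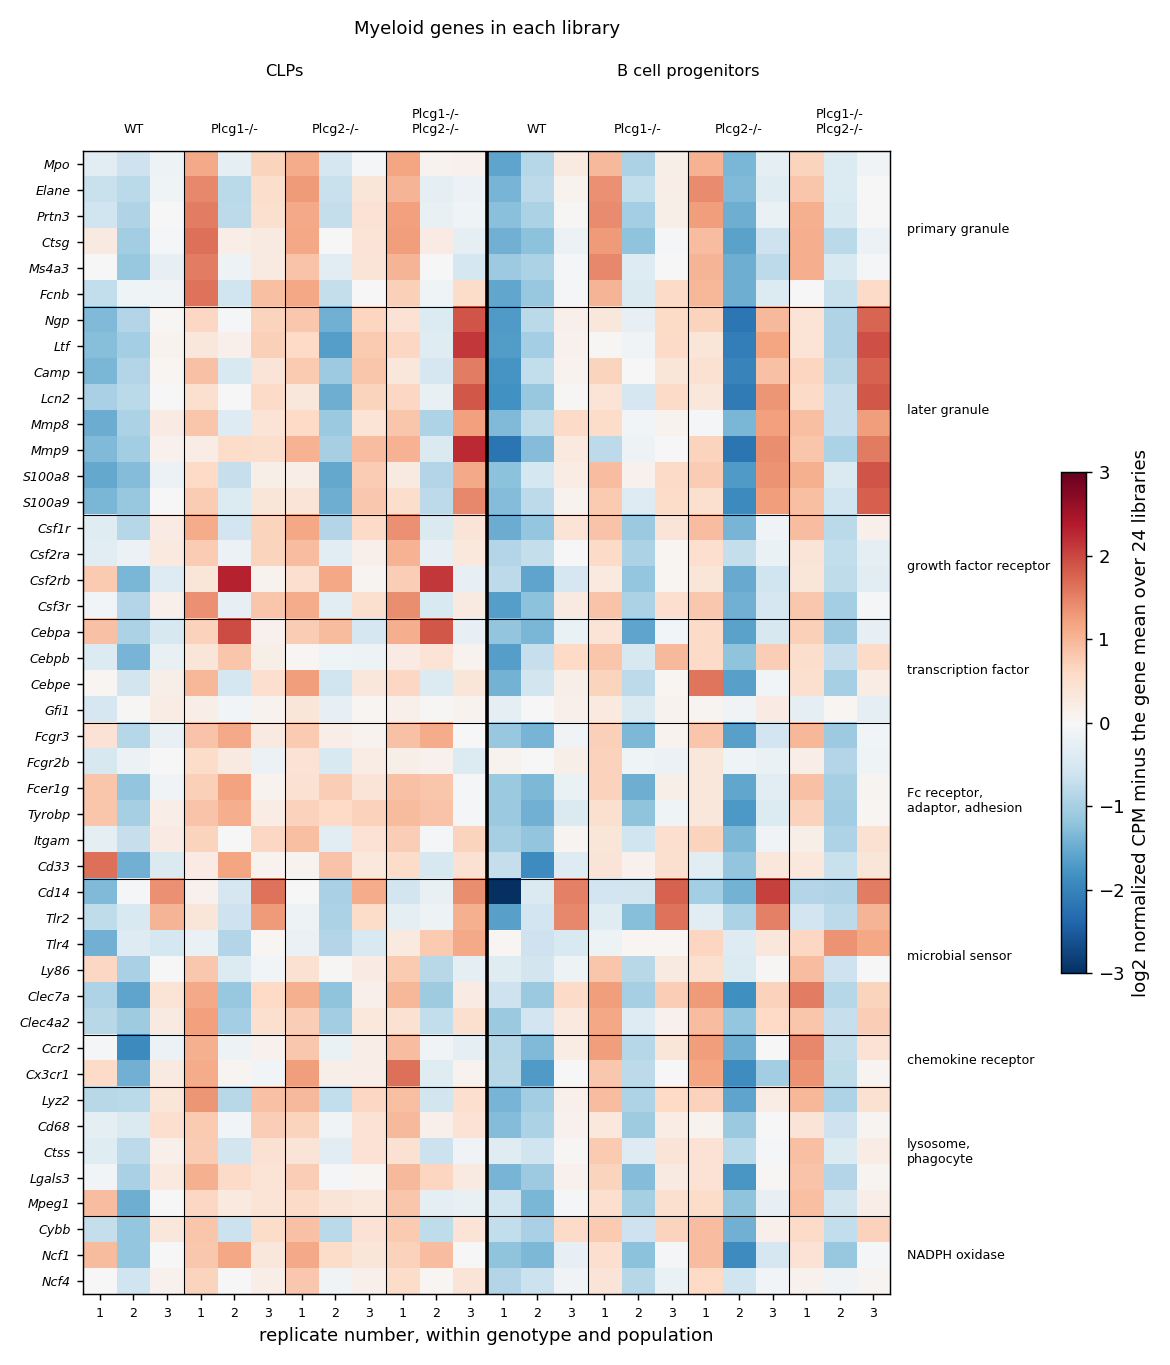
Level of each of the 44 myeloid genes (rows, grouped by role) in each of the 24 libraries (columns, by population, genotype and replicate number), as log2 normalized CPM minus the gene's mean over 24 libraries, on a colour scale from -3 to 3 on which the one lower value (Cd14 in WT B cell progenitors, replicate 1) is drawn at -3. The columns of replicate 1 of the knockout genotypes are red for most genes, those of replicate 2 are blue in B cell progenitors, and Cd14 and Tlr2 are red in replicate 3 of every group.

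The question put by the genotypes was whether loss of PLCγ1, PLCγ2 or both changed the myeloid genes. Among CLPs, 0 of 44 members passed the threshold (edgeR's quasi-likelihood test, adjusted p at most 0.05 and a log2 fold change of at least 0.5 in size) in any of the 4 comparisons. Among B cell progenitors Tlr4 alone did, in Plcg1-/-Plcg2-/- against WT. The backgrounds over 15209 genes in CLPs were 0.0921% for Plcg1-/-Plcg2-/- against WT, 0.00658% for Plcg1-/-, 0% for Plcg2-/- and 0.0263% for Plcg1-/-Plcg2-/- against Plcg1-/-. Over 15001 genes in B cell progenitors they were 0.893%, 0.0600%, 0.0467% and 0.213% in the same order. The 1 of 44 is a share of 2.27%, and a count of 1 is too small to set against these backgrounds.

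In CLPs, same-numbered libraries of Plcg1-/-Plcg2-/- and Plcg1-/- correlated in their deviations from the group means (0.346 to 0.612), although the labels do not pair these mice. For this comparison a replicate block raised the count over all genes from 4 to 17 and left 0 members called.

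At an unadjusted p of at most 0.05, 8 members passed in Plcg1-/-Plcg2-/- CLPs against WT (18.2% of members, 7.51% of all genes), and these were Tlr4, Cebpb, Mmp9, Lcn2, Ltf, Lgals3, Ngp and Fcgr3. In Plcg1-/- CLPs there were 3, Fcgr3, Lgals3 and Cebpb (6.82% against 2.85%), in Plcg2-/- CLPs 0 (against 3.92%), and in Plcg1-/-Plcg2-/- against Plcg1-/- CLPs only Tlr4 (2.27% against 4.29%). In B cell progenitors the numbers were 4 (Lcn2, S100a8, S100a9 and Tlr4, 9.09% against 12.3%), 1 (Cd33, 2.27% against 9.93%), 0 (against 2.84%) and 1 (Tlr4, 2.27% against 16.6%). DESeq2 called Tlr4 in 3 comparisons, given below, and 0 members in the other 5.

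Apart from Tlr4 no single member passed, but nearly all members had higher means in the knockout groups than in WT. In CLPs 43 of 44 had a log2 fold change above 0 in Plcg1-/-Plcg2-/-, 44 in Plcg1-/- and 41 in Plcg2-/-, with medians of 0.71, 0.87 and 0.59, beside medians of -0.03, -0.01 and 0.01 over all genes tested. Among B cell progenitors, 41, 44 and 43 of 44 were above 0, with medians of 0.80, 0.81 and 0.57 beside -0.02, 0.06 and 0.03. These comparisons share the same 3 WT libraries within a population, and the standard error of a single member was close to its median fold change, with a median over members of 0.54 in CLPs and 0.63 in B cell progenitors for Plcg1-/-Plcg2-/- against WT.

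The height of the medians rested in part on the replicate 1 libraries. With replicates 2 and 3 of each group alone, an alternative added after the data were seen, the medians in CLPs were 0.45 for Plcg1-/-Plcg2-/-, 0.46 for Plcg1-/- and 0.32 for Plcg2-/-. Those in B cell progenitors were 0.20, 0.16 and -0.19, and 34, 33 and 12 of 44 members were then above 0. Against Plcg1-/- rather than WT, the medians of Plcg1-/-Plcg2-/- over all libraries were -0.11 in CLPs, with 16 of 44 above 0, and -0.03 in B cell progenitors, with 20 of 44 above 0. These 2 counts turned on single libraries. The CLP count was 31 without Plcg1-/- replicate 1 and 27 without Plcg1-/-Plcg2-/- replicate 2. The B cell progenitor count was 39 without Plcg1-/- replicate 1 and 37 without Plcg1-/-Plcg2-/- replicate 2, but 9 without Plcg1-/- replicate 2 and 11 without Plcg1-/-Plcg2-/- replicate 1.

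**Figure D3:**
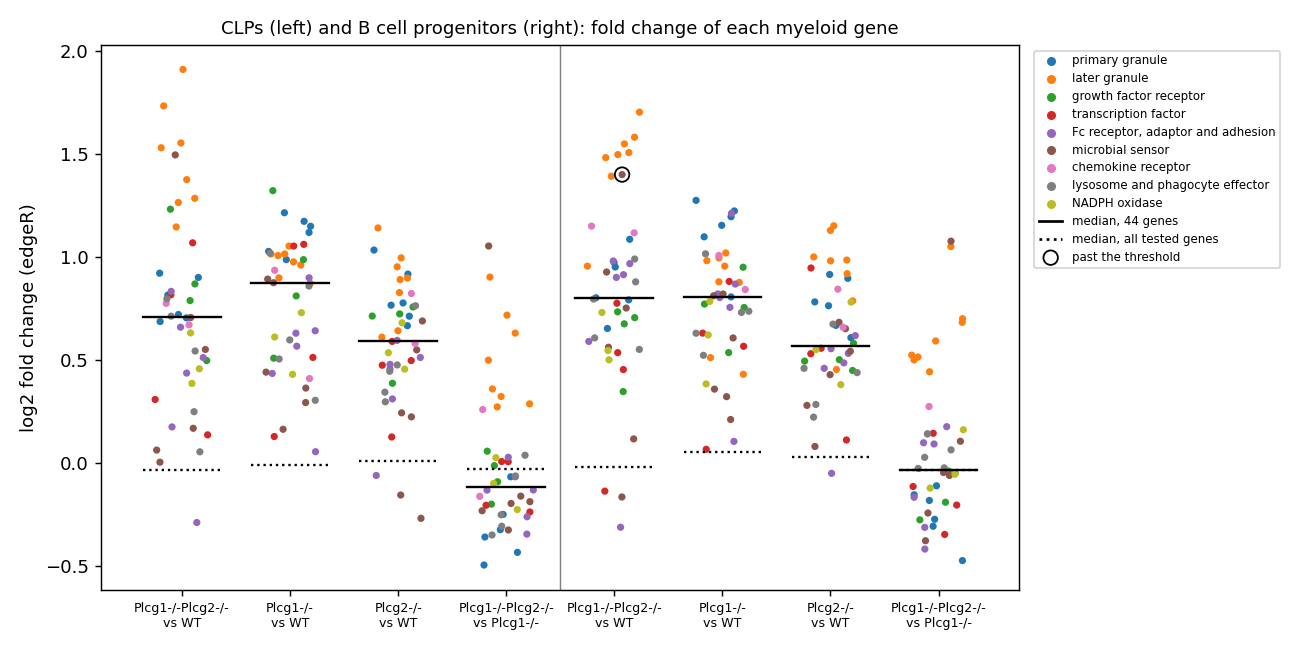
Log2 fold change (vertical axis, edgeR) of each of the 44 myeloid genes, coloured by role, in 4 genotype comparisons in CLPs (left) and the same 4 in B cell progenitors (right); solid lines are medians of the 44 and dotted lines medians of all genes tested. The 6 comparisons with WT have medians of 0.57 to 0.87, the later granule genes and Tlr4 lie highest in Plcg1-/-Plcg2-/-, and the circle marks Tlr4 in B cell progenitors, the only member past the threshold.

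Tlr4 encodes the receptor for bacterial lipopolysaccharide and is annotated at chr4:66827584-66930284 on the plus strand (GRCm38). Its level in WT CLPs was 5.21, 10.97 and 9.84 CPM in replicates 1, 2 and 3, that in Plcg1-/- CLPs 12.4, 7.73 and 14.9, and that in Plcg2-/- CLPs 12.3, 7.79 and 10.4. In Plcg1-/-Plcg2-/- CLPs it was 17.5, 24.4 and 31.2. Each of the 3 double-deficient libraries was above all 9 of the other CLP libraries, and the share of all genes for which this held was not counted.

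The B cell progenitors held Tlr4 at 14.8, 9.24 and 10.3 CPM in WT, at 12.9, 14.8 and 14.7 in Plcg1-/- and at 22.3, 10.96 and 18.01 in Plcg2-/-. In Plcg1-/-Plcg2-/- it was 21.96, 36.5 and 31.8. The double-deficient libraries were above all WT and Plcg1-/- libraries, and overlapped Plcg2-/- through its replicate 1. The lowest read count behind these levels was 45 in a CLP library and 27 in a B cell progenitor library.

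Tlr4 rose in Plcg1-/-Plcg2-/- B cell progenitors against WT by a log2 fold change of 1.40 (SE 0.28, adjusted p = 0.0378 by edgeR and 0.000537 by DESeq2). In CLPs the value was 1.50 (SE 0.35), which did not pass (adjusted p = 0.217 by edgeR, 0.00717 by DESeq2). Against Plcg1-/- it was 1.05 in CLPs (edgeR adjusted p = 0.782) and 1.08 in B cell progenitors (edgeR adjusted p = 0.161, DESeq2 adjusted p = 0.0230). The difference between the populations in the response to double deficiency was -0.10 (SE 0.45, edgeR adjusted p = 1.00), and 0 members passed that test of the difference, with a background of 0%. At an unadjusted p of at most 0.05, 0 members and 1.36% of all genes did, and DESeq2 called 0 genes.

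The call of Tlr4 in B cell progenitors was near the threshold. Leaving out single libraries gave log2 fold changes of 1.24 to 1.63 and adjusted p of 0.0134 to 0.211 (edgeR), and the call was lost without any one WT library (adjusted p = 0.0525, 0.211 and 0.156 for replicates 1, 2 and 3), without Plcg1-/-Plcg2-/- replicate 2 (0.150) or 3 (0.145), without Plcg1-/- replicate 3 (0.0598) and without Plcg2-/- replicate 3 (0.0600). With replicates 2 and 3 of each group alone it was 1.80 (edgeR adjusted p = 0.0138).

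Groups that did not overlap were counted without a test. In CLPs, every Plcg1-/-Plcg2-/- library was above every WT library for 3 members, Mpo, Cebpb and Tlr4 (6.82% of members, 6.27% of all genes), and every Plcg1-/- library for 5, Ltf, Lcn2, Mmp9, Cebpb and Lgals3 (11.4%, background 3.17%). The count was 1 in Plcg2-/- CLPs, Cebpb (2.27%, background 3.17%), and 1 in Plcg1-/-Plcg2-/- against Plcg1-/-, Tlr4 (background 4.33%). Among B cell progenitors it was 1 in Plcg1-/-Plcg2-/- against WT, Tlr4 (background 9.03%), 1 in Plcg1-/-, Cd33 (background 8.03%), 0 in Plcg2-/- (background 4.45%) and 1 in Plcg1-/-Plcg2-/- against Plcg1-/-, Tlr4 (background 6.31%). Apart from the 5 in Plcg1-/- CLPs, these counts were close to or below the share over all genes.

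Primary granule genes encode the proteins of the azurophil granules and of promyelocytes: myeloperoxidase (Mpo), the serine proteases neutrophil elastase (Elane), proteinase 3 (Prtn3) and cathepsin G (Ctsg), the membrane protein Ms4a3 and the lectin ficolin B (Fcnb). Their summed level was 1914 to 7890 CPM in CLPs and 1142 to 7012 in B cell progenitors. Mpo, at chr11:87793581-87804413, made up most of it. In WT CLPs Mpo stood at 1498, 1237 and 1727 CPM in replicates 1 to 3, in Plcg1-/- at 4219, 1576 and 3051, in Plcg2-/- at 4116, 1347 and 1853 and in Plcg1-/-Plcg2-/- at 4335, 2065 and 2093. The knockout replicate 1 libraries were the 3 highest of the 12.

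The B cell progenitors had Mpo at 638, 1048 and 2306 CPM in WT, 3736, 989 and 2169 in Plcg1-/-, 3961, 736 and 1574 in Plcg2-/- and 3048, 1426 and 1783 in Plcg1-/-Plcg2-/-. The knockout replicate 1 libraries were again highest, and the WT replicate 3 library was above replicates 2 and 3 of every knockout. The median log2 fold change of the 6 genes against WT was 0.77 in Plcg1-/-Plcg2-/-, 1.14 in Plcg1-/- and 0.77 in Plcg2-/- CLPs, and 0.88, 1.18 and 0.77 in B cell progenitors. With replicates 2 and 3 alone it was 0.39, 0.56 and 0.34 in CLPs and 0.17, 0.06 and -0.54 in B cell progenitors. In Plcg1-/-Plcg2-/- against Plcg1-/-, 0 of 6 were above 0 in either population (medians of -0.34 and -0.23).

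Genes of the later neutrophil granules had the largest median fold change of any role in Plcg1-/-Plcg2-/- against WT, and their highest levels were those of 1 mouse. This group holds neutrophilic granule protein (Ngp), lactoferrin (Ltf), cathelicidin (Camp), lipocalin 2 (Lcn2) and the matrix metalloproteinases Mmp8 and Mmp9. Counted with them are S100a8 and S100a9, whose products form calprotectin, a complex of the cytosol rather than of the granules. Ngp, at chr9:110419747-110423012, stood at 107, 145 and 276 CPM in WT CLPs, 411, 256 and 428 in Plcg1-/-, 467, 99.0 and 418 in Plcg2-/- and 360, 201 and 988 in Plcg1-/-Plcg2-/-. Its level in B cell progenitors was 82.7, 153 and 298 CPM in WT, 336, 224 and 406 in Plcg1-/-, 423, 59.9 and 522 in Plcg2-/- and 355, 143 and 898 in Plcg1-/-Plcg2-/-. The Plcg1-/-Plcg2-/- replicate 3 mouse had the highest level of the 12 mice in both populations, and replicate 2 of that genotype lay within the WT range.

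All 8 later granule genes had log2 fold changes above 0 in all 6 comparisons with WT. The medians were 1.45, 0.99 and 0.89 in Plcg1-/-Plcg2-/-, Plcg1-/- and Plcg2-/- CLPs and 1.50, 0.92 and 0.98 in B cell progenitors, and 0 of the 8 passed the threshold in any of them. With replicates 2 and 3 alone the medians were 1.36, 0.57 and 0.39 in CLPs and 1.25, 0.41 and 0.53 in B cell progenitors. In Plcg1-/-Plcg2-/- against Plcg1-/-, 8 of 8 were above 0 in each population, with medians of 0.43 and 0.56. Both rested on the replicate 3 mouse. Without the Plcg1-/-Plcg2-/- replicate 3 library of the population, the medians against Plcg1-/- were -0.26 in CLPs, with 1 of 8 above 0, and -0.14 in B cell progenitors, with 2 of 8 above 0. Those of Plcg1-/-Plcg2-/- against WT were then 0.73 and 0.75, with 8 of 8 above 0, and were no longer the largest of any role (primary granule genes had 1.00 in CLPs and chemokine receptors 1.26 in B cell progenitors). Mature neutrophil genes outside the 44 were measured beside them: Retnlg ranged from 10.7 to 237 CPM over the 24 libraries and Cxcr2 from 2.75 to 79.3. Their part in the granule transcripts was not tested.

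Growth factor receptors of the group are those for M-CSF (Csf1r), G-CSF (Csf3r) and GM-CSF (Csf2ra, and Csf2rb, the chain shared with the receptors of IL-3 and IL-5). Csf2rb, at chr15:78325752-78353847, stood in CLPs at 231, 51.9 and 103 CPM in WT, 173, 666 and 146 in Plcg1-/-, 191, 299.6 and 144 in Plcg2-/- and 226, 590 and 114 in Plcg1-/-Plcg2-/-. The high libraries were WT replicate 1 and replicate 2 of each knockout. In B cell progenitors of the same mice it was 78.7, 45.2 and 94.6 CPM in WT, 166, 60.0 and 140 in Plcg1-/-, 173, 47.1 and 89.4 in Plcg2-/- and 174, 79.6 and 106 in Plcg1-/-Plcg2-/-, and replicate 2 was the lowest of each group. Median log2 fold changes of the 4 receptors against WT were 0.83, 0.90 and 0.72 in CLPs and 0.69, 0.76 and 0.50 in B cell progenitors (Plcg1-/-Plcg2-/-, Plcg1-/- and Plcg2-/-).

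Among the transcription factors, C/EBPα (Cebpa) drives the granulocyte and macrophage programme, C/EBPβ (Cebpb) acts in stress granulopoiesis and in macrophages, C/EBPε (Cebpe) is needed for later granules, and GFI1 (Gfi1) supports neutrophil and also early B cell development. Cebpa (chr7:35119293-35121928) followed Csf2rb in CLPs, at 183, 50.9 and 70.9 CPM in WT, 160 (replicate 1), 380 (replicate 2) and 108 (replicate 3) in Plcg1-/-, 166, 189 and 68.9 in Plcg2-/- and 210.1, 360.4 and 82.9 in Plcg1-/-Plcg2-/-. The B cell progenitors had it at 43.2, 38.1 and 86.4 CPM in WT, 131, 32.8 and 93.5 in Plcg1-/-, 146, 32.6 and 70.1 in Plcg2-/- and 162, 46.3 and 82.9 in Plcg1-/-Plcg2-/-. Replicate 2 was thus high in knockout CLPs and the lowest in B cell progenitors. The medians of the 4 factors against WT were 0.56, 0.78 and 0.49 in CLPs and 0.50, 0.60 and 0.54 in B cell progenitors.

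**Figure D4:**
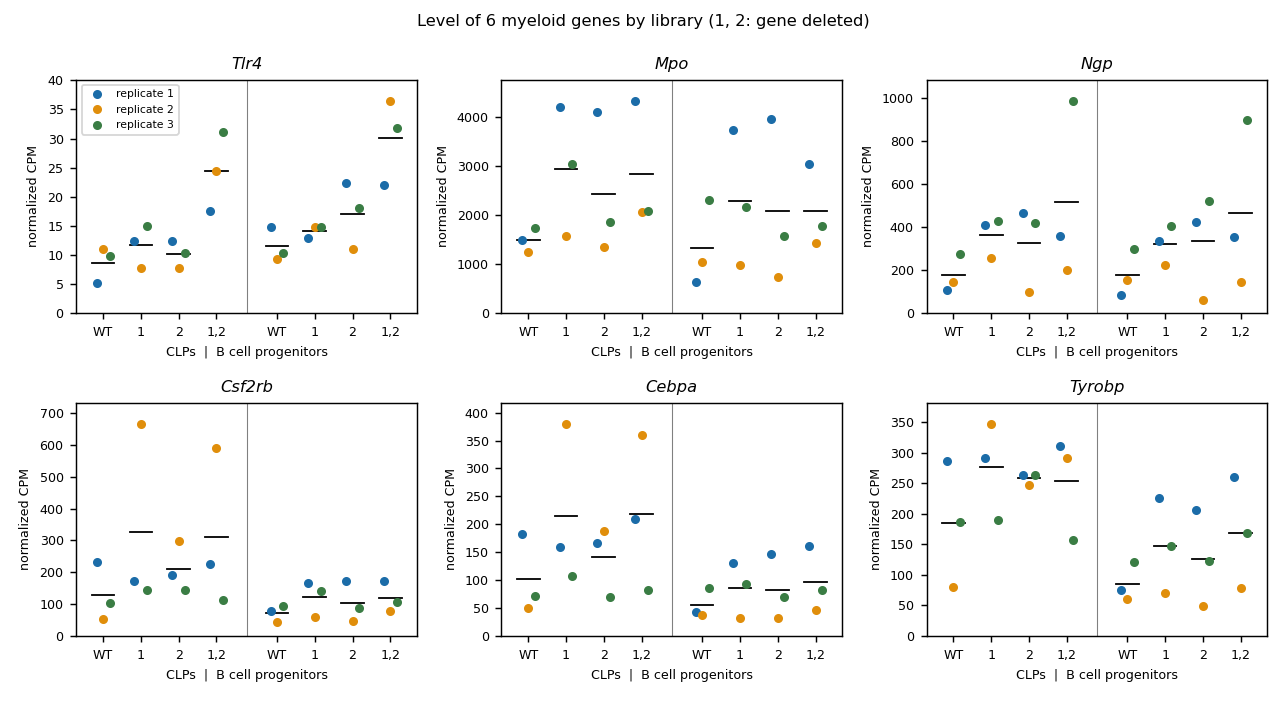
Normalized CPM (vertical axes, from 0) of Tlr4, Mpo, Ngp, Csf2rb, Cebpa and Tyrobp in each library by genotype (1, Plcg1-/-; 2, Plcg2-/-; 1,2, Plcg1-/-Plcg2-/-), with CLPs left and B cell progenitors right of the line, points coloured by replicate number and lines at means of 3. Tlr4 is highest in the double-deficient groups, Mpo in knockout replicate 1, Ngp in double-deficient replicate 3, and Csf2rb and Cebpa in replicate 2 of the Plcg1-/- and Plcg1-/-Plcg2-/- CLPs.

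Fc receptors, adaptors and adhesion molecules of the group are the activating receptor Fcgr3, the inhibitory Fcgr2b, the signalling adaptors Fcer1g and Tyrobp (DAP12), the integrin chain Itgam and Cd33. Tyrobp (chr7:30413760-30417585) stood in CLPs at 286, 80.9 and 186 CPM in WT, 292, 347 and 190 (replicate 3) in Plcg1-/-, 263, 247 and 264 in Plcg2-/- and 311, 292 and 157 in Plcg1-/-Plcg2-/-. Its level in B cell progenitors was 75.2, 59.7 and 120.5 in WT, 225, 69.6 and 147 in Plcg1-/-, 205, 49.0 and 122 in Plcg2-/- and 259.9, 79.1 and 168 in Plcg1-/-Plcg2-/-. The group medians against WT were 0.48, 0.60 and 0.47 in CLPs and 0.91, 0.81 and 0.51 in B cell progenitors. Fcgr2b, the receptor of this group best known from B cells, had the lowest value of all members in Plcg1-/-Plcg2-/- B cell progenitors, at -0.31.

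Of the microbial sensors, Ly86 (MD-1, a partner of a Toll-like receptor homologue) had the highest mean level in CLPs. It stood there at 107, 35.8 and 70.9 CPM in WT, 123, 52.7 and 66.1 in Plcg1-/-, 96.5, 72.0 and 83.2 in Plcg2-/- and 119.9, 39.4 and 57.3 in Plcg1-/-Plcg2-/-. The corresponding values in B cell progenitors were 54.9, 47.7 and 62.8 in WT, 125, 39.5 and 85.2 in Plcg1-/-, 97.7, 52.8 and 72.1 in Plcg2-/- and 132, 45.3 and 70.2 in Plcg1-/-Plcg2-/-. Genotypes overlapped in both populations.

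Cd14, the co-receptor that hands lipopolysaccharide to TLR4, and Tlr2, the receptor for bacterial lipopeptides, followed the replicate number instead. They are named here after their values were seen. Cd14 stood at 35.0 to 67.4 CPM in the 8 replicate 3 libraries and at 1.97 to 17.7 in the 16 others, and Tlr2 at 39.6 to 84.1 against 8.85 to 34.8, without overlap for either gene. The share of all genes that split the 8 from the 16 in this way is not given here. By another measure, Cd14, Tlr2, Ltf and Lcn2 were the 4 members (9.09%) highest in replicate 3 in all 8 groups, against 0.279% of all genes tested. Whether replicate 3 marked a day, a batch or a litter is not given in the sources used here. Tlr4 did not follow this order, and was highest in replicate 2 in Plcg1-/-Plcg2-/- B cell progenitors.

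Both chemokine receptors mark monocytes. Ccr2 (chr9:124101950-124113557) stood in CLPs at 199, 54.8 and 184 CPM in WT, 432, 186 and 226 in Plcg1-/-, 362, 180 (replicate 2) and 236 in Plcg2-/- and 393, 192 and 172 in Plcg1-/-Plcg2-/-. In B cell progenitors it was 113, 82.6 and 240 (replicate 3) in WT, 490 (replicate 1), 114 and 264 in Plcg1-/-, 497, 76.0 and 207 in Plcg2-/- and 566, 126 and 277 in Plcg1-/-Plcg2-/-. Knockout replicate 1 was the highest library in each population. The medians of Ccr2 and Cx3cr1 against WT were 0.72, 0.67 and 0.70 in CLPs and 1.13, 0.93 and 0.75 in B cell progenitors, and with replicates 2 and 3 alone those of B cell progenitors were 0.34, 0.22 and -0.59.

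Lysosomal and phagocyte effectors are Lyz2, the macrosialin Cd68, the protease cathepsin S (Ctss), galectin 3 (Lgals3) and the pore-forming perforin-2 (Mpeg1). Lyz2 (chr10:117277331-117282321) stood in CLPs at 484, 495 and 1117 CPM in WT, 2153, 489 and 1597 in Plcg1-/-, 1699, 519 and 1339 in Plcg2-/- and 1619, 593 and 1231 in Plcg1-/-Plcg2-/-. Its level in B cell progenitors was 327, 423 and 954 in WT, 1635, 452 and 1318 in Plcg1-/-, 1396, 289 and 1007 in Plcg2-/- and 1728, 455 and 1191 in Plcg1-/-Plcg2-/-. The replicate 2 libraries, at 289 to 593 CPM, were below every knockout library of replicates 1 and 3, at 1007 to 2153. The medians of the 5 genes against WT were 0.54, 0.60 and 0.45 in CLPs and 0.80, 0.73 and 0.44 in B cell progenitors.

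The phagocyte NADPH oxidase was represented by its catalytic subunit gp91phox (Cybb) and the cytosolic subunits p47phox (Ncf1) and p40phox (Ncf4). Ncf1 (chr5:134220053-134229625) stood in CLPs at 363, 83.3 and 189 CPM in WT, 327, 418 and 238 in Plcg1-/-, 411, 276 and 239 in Plcg2-/- and 304, 354 and 186 in Plcg1-/-Plcg2-/-. In B cell progenitors it was 80.6, 73.1 and 158 in WT, 268, 80.1 and 184 in Plcg1-/-, 353, 50.6 and 131 in Plcg2-/- and 253, 85.2 and 181 in Plcg1-/-Plcg2-/-. Genotypes overlapped in both. The medians of the 3 subunits against WT were 0.46, 0.61 and 0.54 in CLPs and 0.55, 0.62 and 0.55 in B cell progenitors.

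The populations were compared next, over the mean of the 4 genotypes. Their libraries did not overlap in reads on no feature (17.9% to 45.2% in CLPs, 59.9% to 87.3% in B cell progenitors). That difference between libraries and the population cannot be told apart. Relative to CLPs, 5 of 44 members (11.4%) fell and 0 rose in B cell progenitors, beside 14.4% of 17212 genes called, 5.98% lower and 8.41% higher. These were Csf2rb with a log2 fold change of -1.17 (SE 0.33, edgeR adjusted p = 0.0116), Cebpa with -1.04 (SE 0.34, adjusted p = 0.0249), Tyrobp with -0.92 (SE 0.26, adjusted p = 0.0111), Ncf1 with -0.86 (SE 0.30, adjusted p = 0.0334) and Cd68 with -0.60 (SE 0.21, adjusted p = 0.0407). The median of the 44 was -0.23, with 12 above 0, beside 0.08 over all genes. The 2 libraries of a mouse form a pair, and with the mouse as a block Csf2rb (-0.99, edgeR adjusted p = 0.0564) and Cebpa (-0.98, adjusted p = 0.0728) lost the call, Tyrobp, Ncf1 and Cd68 remained, and Csf3r, Ctsg, Cx3cr1 and Lgals3 joined them, for 7 in all, each lower (15.9% of members, beside 5.58% of all genes called lower and 12.3% called in either direction under the block). Under the block, members that missed only the fold change size went both ways. Among them were S100a8 (0.499, edgeR adjusted p = 0.000733) and Tlr4 (0.447, adjusted p = 0.0352), which were higher, and Csf2ra (-0.490, adjusted p = 6.39e-05), which was lower. Leaving out single libraries gave 3 to 11 members called, counts that are not set here beside the share over all genes in the same fits. The most were called without replicate 1 of Plcg2-/- (11), Plcg1-/- (9) or Plcg1-/-Plcg2-/- (8) B cell progenitors. Tyrobp and Csf2rb kept the call without any one library, and Cebpa lost it without CLP WT replicate 1 or CLP replicate 2 of Plcg1-/- or Plcg1-/-Plcg2-/-. In WT alone 0 members passed edgeR's test, beside 3.50% of all genes. At an unadjusted p of at most 0.05 only Tyrobp (-1.12) and Cd33 (-1.38) did (4.55% of members, 16.1% of all genes), and DESeq2 called 0 members. Primary granule genes had a median of -0.25 and later granule genes of -0.04 over the 4 genotypes.

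Within single mice, 7 members were lower in B cell progenitors in all 12: Csf2ra, Csf2rb, Itgam, Cd68, Lgals3, Ncf1 and Ncf4 (15.9% of members, 4.85% of all genes tested). S100a8, S100a9 and Clec7a, the β-glucan receptor Dectin-1, were higher in 11 of 12, which is 6.82% of members beside 12.1% of all genes higher in 11 or more, and Tlr4 was higher in 10 of 12. Cd68 ranged from 21.2 to 56.2 CPM in CLPs and from 11.6 to 37.4 in B cell progenitors, so that the populations overlapped although every mouse was lower in its B cell progenitors.

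**Figure D5:**
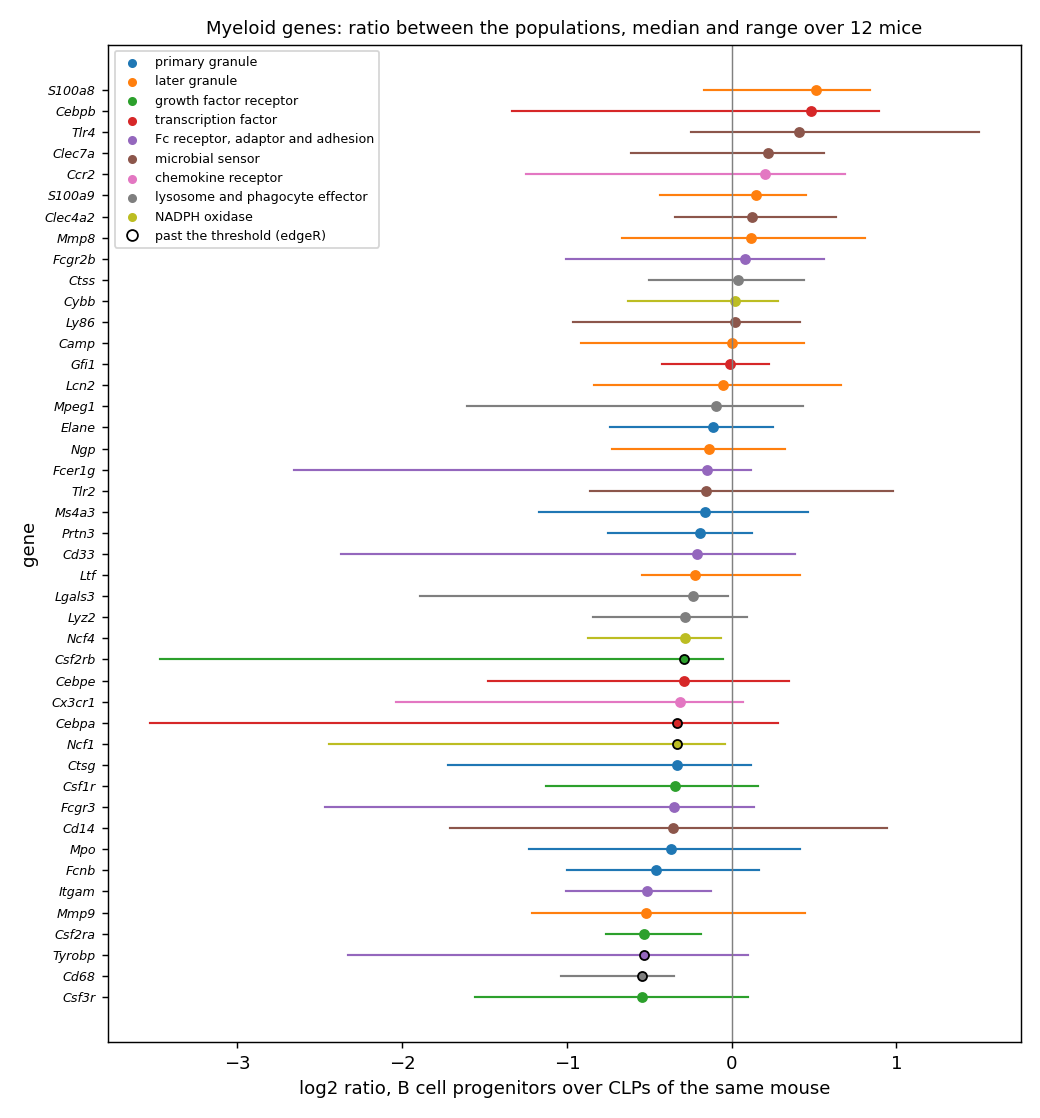
Log2 ratio of B cell progenitors over CLPs of the same mouse (horizontal axis) for each of the 44 myeloid genes, as the median (point) and range (line) over 12 mice, coloured by role, with black rings on the 5 genes past the threshold. The lines of Csf2rb and Cebpa reach down to -3.47 and -3.53 while their medians stand at -0.29 and -0.33, and the whole line of Cd68, from -1.04 to -0.35, lies below 0.

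The difference between populations moved with 4 CLP libraries. In each genotype the CLP library highest in markers of basophils, mast cells and eosinophils was picked, so the rule gives 1 per genotype. These were WT replicate 1 (6295 CPM), Plcg1-/- replicate 2 (8715), Plcg2-/- replicate 2 (4777) and Plcg1-/-Plcg2-/- replicate 2 (8139), against 681 to 3799 in the other 8. The picked Plcg2-/- library was nearest to the others, with replicate 1 of its genotype at 3799. These 4 also held more CLP marker transcripts (2902 to 3572 CPM against 1151 to 2223) and megakaryocyte marker transcripts (151 to 369 against 23.4 to 109). Csf2rb was above all other CLP libraries in them, at 231 to 666 CPM against 51.9 to 226 (1 of 44 members, 2.27%, beside 5.74% of all genes). Fcnb, Csf2ra and Gfi1 were below all the others in them (6.82% of members, 1.33% of all genes), and 36 of 44 members had a lower median in them (81.8%, beside 49.9% of all genes). In the 4 mice concerned, 33 to 40 of 44 members were lower in B cell progenitors, with medians of -0.86 to -0.49, and in the other 8 mice 16 to 33 were, with medians of -0.26 to 0.05. Without these 4 CLP libraries, the values were -0.47 for Csf2rb (edgeR adjusted p = 0.256), -0.51 for Cebpa (adjusted p = 0.328), -0.65 for Ncf1 (adjusted p = 0.209) and -0.76 for Tyrobp (adjusted p = 0.0963). Cd68 and Csf2ra were then the 2 members past the threshold, a count not set here beside the share over all genes. The medians of the 44 against WT in CLPs were 0.98, 0.95 and 0.93 without them (Plcg1-/-Plcg2-/-, Plcg1-/- and Plcg2-/-), with 0 members called. The part of basophils or other cells in these transcripts was not tested.

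A further list of 54 myeloid genes outside the 44, of which 53 were in the tables, was read in the same fits. Of these, 0 passed edgeR's test in any of the 8 genotype comparisons, and 6, 7, 4 and 1 in CLPs and 5, 2, 0 and 0 in B cell progenitors did at an unadjusted p of at most 0.05. These were 11.3%, 13.2%, 7.55% and 1.89% of the list in CLPs, beside 7.51%, 2.85%, 3.92% and 4.29% of all genes, and 9.43%, 3.77%, 0% and 0% in B cell progenitors, beside 12.3%, 9.93%, 2.84% and 16.6%. Their medians against WT were 0.59, 0.75 and 0.49 in CLPs and 0.78, 0.63 and 0.46 in B cell progenitors (Plcg1-/-Plcg2-/-, Plcg1-/- and Plcg2-/-). Between the populations 16 of the 53 fell (30.2%, beside 5.98% of all genes) and 1, Ly6c1, rose (1.89%, beside 8.41%). Among those that fell were the IL-3 receptor chain Csf2rb2 (-1.28), the factor Irf8, the oxidase subunit Cyba, the neutrophil receptor Cxcr2, the 5-lipoxygenase Alox5 and the histidine decarboxylase Hdc. Cxcr2 overlapped, at 3.90 to 79.3 CPM in CLPs (median 8.79) and 2.75 to 16.4 in B cell progenitors (median 5.65). For this list, values without the 4 CLP libraries highest in basophil markers are not given.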

How the data were processed

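Sorted CLPs and B cell progenitors were measured by RNA-seq, with 3 libraries for each of 8 groups. Each library had been made from poly(A) RNA of cells sorted from 1 mouse. Per the labels, the authors aligned reads with STAR 2.5.0a to mm10, and they deposited a table of raw counts per gene for each library. The study names its reference as mm10 (RefSeq), and the counting program and its use of strand are not given in the sources used here, so that reads of overlapping and antisense genes cannot be told apart. The 2 lines for reads on no single gene were left out of library sizes and tests. Reads on no feature made up 17.9% to 45.2% of a CLP library and 59.9% to 87.3% of a B cell progenitor library. No pair of replicates of a group agreed within sampling noise (chi-square per degree of freedom 8.28 to 133).

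The quasi-likelihood test of edgeR 4.0.16 (limma 3.58.1, R 4.3.3) was run on the deposited counts with TMM scaling, after filtering low genes by group and without covariates. One fit was made per population with its 4 genotypes and 12 libraries, and 1 over all 24 libraries for the populations. P-values were adjusted by Benjamini-Hochberg over all genes tested, and calls needed an adjusted p no higher than 0.05 and a log2 fold change of size 0.5 or more. DESeq2 1.42.0 was an alternative, as were RLE size factors, no filter, thinning to the smallest library, the replicate block, only the groups compared, and leaving out each library. Levels are TMM-normalized CPM. Intervals of counting error are not given for them, since replicates differed by far more. Python 3.11.15, pandas 2.3.3 and matplotlib 3.10.9 drew the values.

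The numbers paired the CLP and B cell progenitor library of a mouse, by their titles. Their deviations from the group means correlated at a mean of 0.114 (-0.350 to 0.530). Between genotypes, same-numbered libraries correlated above 0.1 in every pair only for Plcg1-/-Plcg2-/- against Plcg1-/- CLPs (0.346 to 0.612).

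Values in every library were given for each member called in a genotype comparison and for the member of each role with the highest mean level in CLPs. The members, the gene and marker lists and the motifs were chosen with earlier results of these data known, the motifs after promoters of granule genes had been read. Gene positions are those of GENCODE vM21 (GRCm38), and promoters are from RefSeq (GRCm38.p6). On simulated data the test of Plcg1-/-Plcg2-/- against WT found 43.0% of 93 genes changed 2-fold and 93.5% of 107 changed 4-fold in CLPs (14842 genes), and 43.3% of 97 and 92.2% of 103 in B cell progenitors (14481 genes). The changed genes were picked at random from those not low in count, whereas the members varied between libraries by more than most genes did. These shares are thus not the power for the members.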

Additional observations from a re-analysis of the deposited data

How the results depend on the processing

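The median log2 fold change of the 44 members moved by less than 1 SD between replicates (0.43 in CLPs, 0.78 in B cell progenitors and 0.63 over both) in each of the 11 comparisons and alternatives run. That SD is about as large as the medians themselves, so that this is no sign of stability: with replicates 2 and 3 alone, Plcg2-/- against WT in B cell progenitors went from 0.57 (43 of 44 above 0) to -0.19 (12 of 44). The number of members called changed as follows, and the cause was not tested. DESeq2 called 1 (Tlr4) in Plcg1-/-Plcg2-/- against WT in CLPs and 1 (Tlr4) against Plcg1-/- in B cell progenitors, where edgeR called 0. With replicates 2 and 3 of each group alone, chosen after seeing the data, edgeR also called 1 (Tlr4) in the latter. Thinning to the smallest library left 0 in Plcg1-/-Plcg2-/- against WT in B cell progenitors (Tlr4 1.21, edgeR adjusted p = 0.0740), and leaving out single libraries gave 0 to 1. For B cell progenitors against CLPs, leaving out single libraries gave 3 to 11 called and leaving out the 4 CLP libraries highest in basophil markers, also chosen after seeing the data, gave 2. These counts of members are not set here beside shares over all genes. With the replicate number as a block, Tlr4 in B cell progenitors was 1.44 (edgeR adjusted p = 0.0193) and no comparison of genotypes changed its count of members called. The block changed the calls of members only between the populations, where the mouse was the pair. In Plcg1-/-Plcg2-/- against WT the count over all genes under the block was 50 in CLPs, where it was 14 without, and 550 in B cell progenitors, where it was 134. DESeq2 called 171 and 438 genes there, the fit of only the 2 groups 0 and 238, and leaving out single libraries 0 to 44 and 50 to 184. For Plcg1-/-Plcg2-/- against Plcg1-/-, DESeq2 called 90 genes in CLPs where edgeR called 4, and 802 in B cell progenitors where edgeR called 32. DESeq2 called 15 and 11 genes for Plcg1-/- and Plcg2-/- against WT in CLPs (1 and 0 by edgeR) and 29 and 17 in B cell progenitors (9 and 7 by edgeR). Depth limits the lowest members most, such as Cd33, whose lowest read count was 12 in a CLP library and 15 in a B cell progenitor library.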
